A study of Mus musculus with 12 samples.

Results

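Cholesterol is made from acetyl-CoA through the mevalonate pathway, squalene and lanosterol, and cells balance this synthesis against uptake of lipoprotein cholesterol. Both arms are controlled by the membrane-bound transcription factor SREBP2: when sterols in the endoplasmic reticulum run low, the carrier protein SCAP escorts SREBP2 to the Golgi, where proteases release the active fragment, and when sterols are plentiful INSIG proteins hold SCAP and SREBP2 back. Proliferating lymphocytes depend on this pathway for membranes and prenyl groups, and interferons are known to alter sterol metabolism in several immune cells. The genes described here are 8 members of the pathway, Hmgcs1, Idi1, Fdft1, Sqle, Lss, Cyp51, Srebf2 and Insig1, taken by gene symbol from a table of 53379 gene identifiers. All 8 were expressed and were among the 14299 genes tested. Of these 8, 6 encode enzymes of synthesis and 2 encode regulators, and none is itself an uptake receptor. Uptake genes were therefore described from a separate list.

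The 12 libraries come from cultured Eµ-myc lymphoma cells, a mouse B cell line on the C57BL/6 background in which an immunoglobulin heavy chain enhancer drives Myc, grown in RPMI 1640 with 10% FCS. There were 4 groups of 3 libraries: unstimulated cells and cells exposed to recombinant mouse interferon-γ (IFN-γ, 5 ng/mL) over 24 h, 6 h or 1 h. An antibody that neutralises IFN-γ (50 µg/mL) closed the 1 h and 6 h exposures, and cells were collected 24 h after stimulation. The 1 h and 6 h groups therefore show levels at collection, after blockade. No library was taken when the antibody was added, so earlier responses were not measured. It is not stated in the labels if replicates are separate cultures, if antibody was also given to unstimulated and 24 h cells, or at what time unstimulated cells were harvested. The p-values consequently measure only the spread between these libraries, which may be technical, and exposure time and antibody cannot be told apart in the comparisons with 1 h and 6 h. Any difference in antibody or culture time between unstimulated and 24 h cells could not be told apart from IFN-γ either.

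Library totals ran from 49440358 to 67096610 counts, and each of the 8 genes had between 952 and 11903 counts in every library. Levels are CPM, which divide the counts by each library's total and its TMM factor. Irf1, an early target of IFN-γ, was used to check the treatment labels. It had a level of 10.6 ± 0.245 CPM in unstimulated cells, 10.5 ± 0.290 CPM after 1 h, 12.1 ± 0.579 CPM after 6 h and 221.1 ± 8.91 CPM after 24 h (SD, n = 3). The 1 h level lay within the spread of the unstimulated level, so Irf1 does not check the 1 h label. The 7 B cell markers Cd79a, Cd79b, Ms4a1, Pax5, Cd22, Ebf1 and Blk were all expressed, with summed levels of 1852 to 1887 CPM in unstimulated, 1847 to 1860 CPM in 1 h, 1813 to 1985 CPM in 6 h and 1687 to 1727 CPM in 24 h libraries. Summed T and NK cell markers reached at most 1.35 CPM (Cd4, Cd8a, Cd8b1 and Ncr1 at 0), myeloid markers 2.94 CPM (S100a8 and S100a9 at 0) and erythroid markers 0.246 CPM (Alas2 at 0). The list of stromal and endothelial markers summed to 60.0 to 61.2 CPM in unstimulated, 61.2 to 64.2 CPM in 1 h, 66.4 to 71.7 CPM in 6 h and 90.1 to 93.8 CPM in 24 h libraries. Nearly all of it came from Pecam1. Cdh5 reached at most 2.90 CPM, Col1a1, Col1a2 and Pdgfrb at most 0.0361 CPM, and Dcn and Kdr were at 0. In bulk libraries such as these, fewer cells of a type and less RNA per cell cannot be told apart.

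SREBPs bind sterol regulatory elements in promoters of their target genes and commonly act together with the factor NF-Y, which binds CCAAT. RefSeq promoter windows on GRCm38.p6 (the mm10 assembly), each from 250 bases before to 50 bases after an annotated start, held 6 of the 8 genes, those for Hmgcs1, Idi1, Lss, Cyp51, Srebf2 and Insig1, and not Sqle or Fdft1. Stretches of these windows are shown as sequence context for the members, also for Lss and Srebf2, which were not called higher at 24 h against unstimulated cells. The stretches below run 5′ to 3′ on the gene's strand, and capitals mark CCAAT or its reverse complement ATTGG, the match TCACCCCAC to the SREBP motif TCACNCCAC, and the E-box CACGTG. They lie at chr13:119690102-119690322 (plus strand, Hmgcs1), chr5:28071184-28071328 (plus strand, Insig1), chr10:76531531-76531559 (plus strand, Lss), chr15:82147122-82147150 (plus strand, Srebf2), chr13:8885549-8885578 (plus strand, Idi1) and chr5:4104709-4104738 (minus strand, Cyp51). The first 4 lie upstream of the start in both RefSeq and GENCODE, and the sites of Idi1 and Cyp51 lie upstream of the RefSeq start but inside the first exon in GENCODE.
Hmgcs1: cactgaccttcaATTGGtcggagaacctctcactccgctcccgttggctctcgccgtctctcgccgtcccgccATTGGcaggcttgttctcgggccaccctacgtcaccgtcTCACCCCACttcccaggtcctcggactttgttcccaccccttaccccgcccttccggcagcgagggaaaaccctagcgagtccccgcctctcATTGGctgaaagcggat
Insig1: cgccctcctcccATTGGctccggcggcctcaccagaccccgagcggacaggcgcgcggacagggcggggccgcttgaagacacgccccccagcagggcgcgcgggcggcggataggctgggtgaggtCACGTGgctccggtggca
Lss: ggtgatgctctgATTGGccgagctcgcat
Srebf2: cttcgcgcgccgATTGGctaatgcaagcc
Idi1: tgcctccagctgATTGGcgagcccgggcat
Cyp51: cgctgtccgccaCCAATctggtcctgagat

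Matches were searched on both strands. CCAAT was present in the windows of 6 of the 6 members and in 37.4% of all 32851 promoter windows of the same length. Hmgcs1 held 4 copies, at 237, 176 and 45 bases before its start and 1 just after it. TCACNCCAC was found in Hmgcs1 alone among the 6, at 137 bases before the start, and in 1.24% of all windows. CACGTG was in Insig1, at 101 bases before the start, and in 7.15% of all windows. None of the 3 motifs contains another, and a match is a description of the sequence in this window and not a measured binding site.

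After 24 h of IFN-γ, 6 of the 8 genes were higher than in unstimulated cells: Hmgcs1, Idi1, Fdft1, Sqle, Cyp51 and Insig1, by 1.18-fold to 1.29-fold (edgeR quasi-likelihood test, Benjamini-Hochberg adjusted p under 0.05). Over all tested genes, 10.3% were called higher and 8.35% lower in this comparison. Lss and Srebf2 were not called, and no member fell. The median log2 fold change was 0.30 over the 8 genes and -0.003 over all genes tested. The same 6 genes stood above every unstimulated library in each of the 3 libraries at 24 h, against 17.2% of all genes, and they stood above all 9 other libraries, against 9.48% of all genes. After 1 h and 6 h of exposure no member was called, beside 0.42% and 1.59% of all genes called in either direction.

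**Figure D1:**
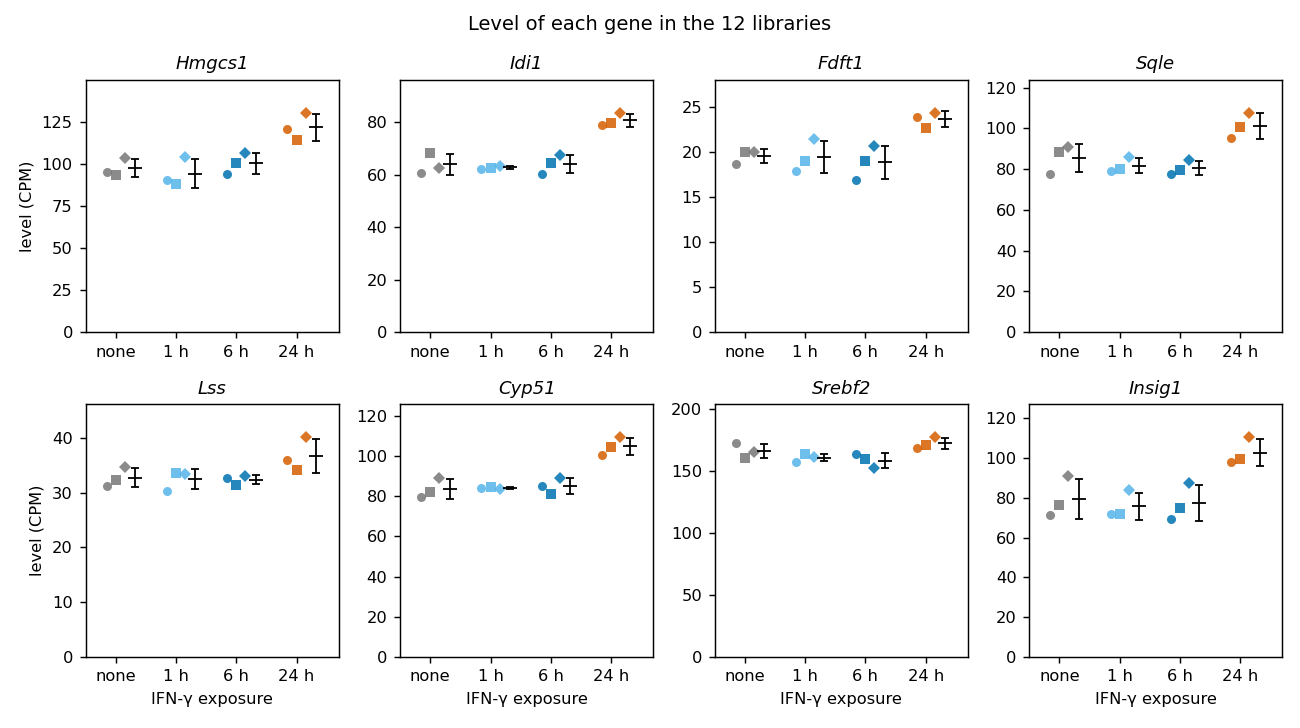
Level in CPM (linear axes from 0) of each of the 8 genes in the 12 libraries, by IFN-γ exposure (none, 1 h, 6 h, 24 h), with circles, squares and diamonds for replicates 1, 2 and 3 and bars for the mean ± SD of 3. In 6 panels the 24 h libraries lie above the other 9. In the panels of Lss and Srebf2 they overlap the unstimulated libraries.

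Hmgcs1 and Idi1 belong to the mevalonate part of the pathway. Hmgcs1 (ENSMUSG00000093930.2, chr13:119690379-119708260, plus strand, whose promoter is shown above) encodes the cytosolic HMG-CoA synthase, which makes the precursor of mevalonate. Its level was 95.2, 93.5 and 103.3 CPM in the 3 unstimulated libraries, 90.6, 87.8 and 104.1 CPM after 1 h, 93.8, 100.7 and 106.5 CPM after 6 h, and 120.4, 114.1 and 130.4 CPM after 24 h. Libraries at 24 h lay above the other 9, whose values overlapped. The unstimulated mean was 97.4 ± 5.23 CPM and the 24 h mean 121.6 ± 8.21 CPM (SD, n = 3). This rise was a log2 fold change of 0.32 ± 0.06 (SE here and below, 1.25-fold, edgeR adjusted p = 8.05e-04).

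Idi1 (ENSMUSG00000058258.14, chr13:8885501-8892451, plus strand) encodes the isomerase that interconverts isopentenyl and dimethylallyl diphosphate, the isoprenoid building blocks. The unstimulated libraries read 60.8, 68.4 and 62.5 CPM, those at 1 h 62.2, 62.6 and 63.4 CPM, those at 6 h 60.3, 64.4 and 67.4 CPM, and those at 24 h 78.7, 79.8 and 83.6 CPM. No 24 h library fell within the range of the others. From 63.9 ± 3.98 CPM unstimulated the mean rose to 80.7 ± 2.55 CPM at 24 h, a log2 fold change of 0.34 ± 0.05 (1.26-fold, edgeR adjusted p = 1.33e-05).

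Fdft1 and Sqle encode the enzymes that commit the pathway to sterols. Fdft1 (ENSMUSG00000021273.10, chr14:63145150-63179578, minus strand) encodes squalene synthase. Its levels were 18.7, 19.99 and 20.1 CPM in unstimulated cells, 17.9, 18.97 and 21.4 CPM after 1 h, 16.9, 19.05 and 20.6 CPM after 6 h, and 23.9, 22.7 and 24.4 CPM after 24 h. The 24 h values did not overlap the rest. The mean rose from 19.6 ± 0.759 to 23.7 ± 0.893 CPM, a log2 fold change of 0.27 ± 0.08 (1.21-fold, edgeR adjusted p = 0.0121), and the call was lost without unstimulated replicate 1 (adjusted p = 0.0676). Fdft1 shares 774 of its 4227 exon bases with Ctsb on the opposite strand, and the strand setting of the counting is not given in the sources used here. Ctsb was at 81.1 ± 2.76 CPM unstimulated and 81.1 ± 2.56 CPM at 24 h (edgeR adjusted p = 0.998).

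Sqle (ENSMUSG00000022351.14, chr15:59315077-59331192, plus strand) encodes squalene epoxidase, which uses oxygen to make the substrate for ring closure. Levels were 77.7, 88.4 and 90.7 CPM in unstimulated libraries, 79.3, 80.0 and 85.8 CPM after 1 h, 77.7, 79.5 and 84.5 CPM after 6 h, and 95.1, 100.8 and 107.7 CPM after 24 h. Every 24 h library was above the other 9, with the smallest gap to unstimulated replicate 3. The mean rose from 85.6 ± 6.89 to 101.2 ± 6.34 CPM, a log2 fold change of 0.24 ± 0.06 (1.18-fold, edgeR adjusted p = 0.00261).

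Lss (ENSMUSG00000033105.12, chr10:76531588-76557138, plus strand) encodes lanosterol synthase, which closes the sterol ring system. Its libraries read 31.3, 32.4 and 34.6 CPM unstimulated, 30.3, 33.6 and 33.4 CPM at 1 h, 32.8, 31.4 and 33.0 CPM at 6 h, and 36.04, 34.1 and 40.1 CPM at 24 h. Replicate 2 at 24 h lay below unstimulated replicate 3, so the groups overlapped. The means were 32.8 ± 1.69 and 36.8 ± 3.09 CPM, and the log2 difference of 0.17 ± 0.06 did not pass the test (edgeR adjusted p = 0.0709, 95% interval 0.03 to 0.30). It passed without 24 h replicate 2 (adjusted p = 0.0361) or without unstimulated replicate 3 (adjusted p = 0.0482), and with each library's trend on GC content removed (adjusted p = 0.0361).

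Cyp51 (ENSMUSG00000001467.5, chr5:4081145-4104746, minus strand) encodes the cytochrome P450 that removes a methyl group from lanosterol. Levels in unstimulated cells were 79.7, 82.3 and 89.3 CPM, with 84.2, 84.5 and 83.5 CPM after 1 h, 85.2, 81.3 and 89.0 CPM after 6 h, and 100.7, 104.8 and 109.5 CPM after 24 h. All 3 libraries at 24 h exceeded the 9 others. The rise from 83.7 ± 4.98 to 105.0 ± 4.38 CPM was a log2 fold change of 0.33 ± 0.05 (1.25-fold) and had the smallest adjusted p of the 8 genes (edgeR adjusted p = 1.09e-05). Cyp51 shares 166 of 4415 exon bases with Akap9, which also rose, from 74.8 ± 2.54 to 86.0 ± 0.704 CPM (edgeR adjusted p = 0.00303). The part of these shared bases in either value was not tested.

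Srebf2 and Insig1 encode regulators of the pathway, and their responses were not tested against each other. Srebf2 (ENSMUSG00000022463.7, chr15:82147181-82205379, plus strand) encodes SREBP2 itself. It was at 172.2, 160.6 and 165.3 CPM in unstimulated cells, 157.1, 163.1 and 161.4 CPM after 1 h, 163.3, 159.5 and 151.9 CPM after 6 h, and 168.2, 170.9 and 176.9 CPM after 24 h. The 24 h and unstimulated ranges overlapped. The means, 166.0 ± 5.83 and 172.0 ± 4.49 CPM, differed by a log2 fold change of 0.05 ± 0.04 that was not called (edgeR adjusted p = 0.443, 95% interval -0.04 to 0.14). The annotation holds a later version of this identifier than the count table, while the other 7 identifiers have the same version in both.

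Insig1 (ENSMUSG00000045294.11, chr5:28071363-28078662, plus strand) encodes the sterol-sensing retention protein and is itself a known SREBP target. Its levels were 71.6, 76.4 and 91.0 CPM in unstimulated libraries, 71.8, 71.9 and 83.8 CPM after 1 h, 69.6, 75.1 and 87.4 CPM after 6 h, and 98.3, 99.4 and 110.5 CPM after 24 h. The 24 h libraries again lay above all 9 others, but within each group the third replicate was well above the other two. The mean rose from 79.7 ± 10.1 to 102.7 ± 6.76 CPM, the largest log2 fold change of the 8 genes at 0.37 ± 0.11 (1.29-fold) and the weakest call among the 6 (edgeR adjusted p = 0.0427). Omitting a library of the comparison ended that call in 5 of 6 fits, with adjusted p of 0.127 without unstimulated replicate 1, 0.128 without unstimulated replicate 2, 0.0708, 0.0815 and 0.127 without 24 h replicates 1, 2 and 3. It was also lost without 1 h replicate 1 (0.0520), 1 h replicate 2 (0.0519) or 6 h replicate 2 (0.0615), and with the GC trend removed (0.0520). An edgeR fit with replicate number as a block gave Insig1 an adjusted p of 5.44e-07 against unstimulated cells. In that fit it was 8.56e-08 for 24 h against 6 h and 2.39e-08 for 24 h against 1 h. No label pairs the libraries by replicate number.

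The comparisons of 1 h and 6 h of exposure with unstimulated cells, and with each other, asked whether a difference was present at collection, after blockade. Whether a member had changed before blockade was not measured. No member was called in any of the 3 comparisons with edgeR, DESeq2 or limma-voom, and none had an unadjusted p under 0.05 in the edgeR fit. Over all genes, 0.42% were called in either direction after 1 h, 1.59% after 6 h and 0.0979% between 6 h and 1 h. Against unstimulated cells, the members' log2 differences ran from -0.07 to 0.01 after 1 h and from -0.09 to 0.04 after 6 h. Their 95% intervals reached no further than -0.32 and 0.17 after 1 h and -0.29 and 0.20 after 6 h, both set by Insig1. Between 6 h and 1 h, the log2 differences ran from -0.05 to 0.09, with intervals within -0.22 and 0.28. No member lay above every unstimulated library in either group, where 7.8% (1 h) and 8.64% (6 h) of all genes lay above every unstimulated library.

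Directly compared with the shorter exposures, the 24 h libraries were higher for most members. Against 6 h, 8 of 8 genes were called higher, beside 8.92% of all genes, and 8 of 8 had groups that did not overlap, beside 15.6%. Log2 fold changes were 0.28 for Hmgcs1 (edgeR adjusted p = 0.00335), 0.33 for Idi1 (1.68e-05), 0.33 for Fdft1 (0.00290), 0.33 for Sqle (8.55e-05), 0.18 for Lss (0.0474), 0.30 for Cyp51 (3.61e-05), 0.12 for Srebf2 (0.0492) and 0.41 for Insig1 (0.0287). The calls of Lss, Srebf2 and Insig1 rested on single libraries. For Lss the adjusted p was 0.0657 and 0.301 without 24 h replicates 1 and 3, 0.0879 and 0.145 without 6 h replicates 1 and 2, and 0.0565 without 1 h replicate 3. For Srebf2 it was 0.0921 and 0.178 without 24 h replicates 2 and 3, 0.0722 and 0.103 without 6 h replicates 2 and 3, and 0.05998 without 1 h replicate 3. In the fit of the 6 libraries compared it was 0.0667 for Lss and 0.0851 for Srebf2, and Srebf2 was at 0.0512 with RLE size factors. For Insig1 it was 0.0501, 0.0603 and 0.0983 without 24 h replicates 1, 2 and 3, and 0.0835 and 0.0969 without 6 h replicates 1 and 2. The count fell to 5 without 6 h replicate 2 or without 24 h replicate 3.

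Against 1 h, 7 of 8 genes were called higher, beside 10.2% of all genes, and 8 of 8 had non-overlapping groups, beside 17.8%. The log2 fold changes were 0.37 for Hmgcs1 (edgeR adjusted p = 1.70e-04), 0.36 for Idi1 (3.90e-06), 0.28 for Fdft1 (0.00862), 0.31 for Sqle (1.75e-04), 0.18 for Lss (0.0461), 0.32 for Cyp51 (1.29e-05) and 0.44 for Insig1 (0.0185). Srebf2, at 0.10 with a 95% interval of 0.01 to 0.19, was not called (adjusted p = 0.103), except without 6 h replicate 3 (0.0439) or with the GC trend removed (0.0373). The adjusted p of Lss was 0.189, 0.0537 and 0.0650 without 1 h replicates 1, 2 and 3, and 0.0624 and 0.302 without 24 h replicates 1 and 3. Insig1 was no longer called without 1 h replicate 1 (0.0643), 1 h replicate 2 (0.0706) or 24 h replicate 3 (0.0667), and Fdft1 without 1 h replicate 1 (0.0637). Without 1 h replicate 1 the count was 4. The comparisons with 24 h share the 24 h libraries, so they are not independent of each other.

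**Figure D2:**
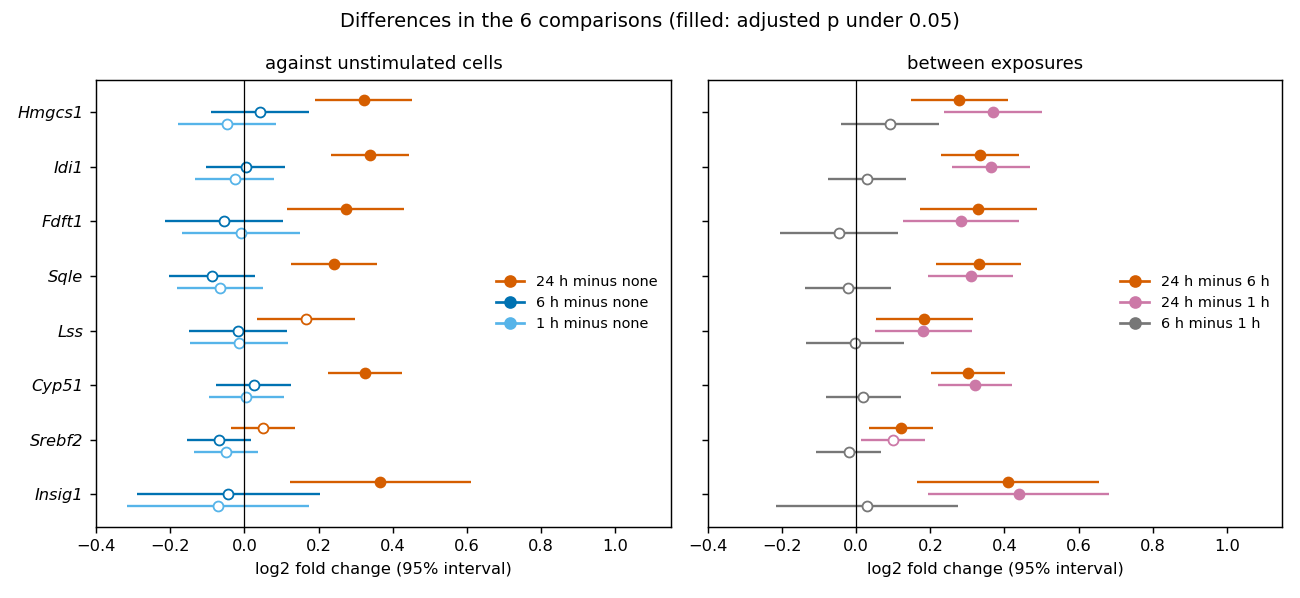
Log2 fold change (x axis, points) with its 95% interval (lines) for the 8 genes in the 6 comparisons, against unstimulated cells on the left and between exposures on the right, with filled points for an adjusted p under 0.05. Points for 24 h against unstimulated cells lie between 0.05 and 0.37, and points for 1 h and 6 h against unstimulated cells between -0.09 and 0.04.

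Levels were compared between genes per exon length, as RPKM, the CPM divided by the length of the union of annotated exons in kilobases. In unstimulated cells the order was Insig1 (25.8 ± 3.26), Srebf2 (23.1 ± 0.812), Hmgcs1 (21.2 ± 1.14), Cyp51 (18.97 ± 1.13), Idi1 (18.2 ± 1.14), Sqle (15.4 ± 1.24), Fdft1 (4.63 ± 0.180) and Lss (3.04 ± 0.157 RPKM, SD, n = 3). Neighbours whose libraries overlapped were Insig1 and Srebf2, Srebf2 and Hmgcs1, and Cyp51 and Idi1. At 24 h the order was Insig1 (33.2 ± 2.19), Hmgcs1 (26.5 ± 1.79), Srebf2 (23.9 ± 0.625), Cyp51 (23.8 ± 0.993), Idi1 (23.0 ± 0.728), Sqle (18.2 ± 1.14), Fdft1 (5.597 ± 0.211) and Lss (3.41 ± 0.287 RPKM). Insig1 and Hmgcs1 then stood clear of Srebf2, while Srebf2 overlapped Cyp51 and Cyp51 overlapped Idi1. The union of exons of Lss is 10787 bp, the longest of the 8, and a transcript that uses fewer of these bases would have a higher RPKM.

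Members other than Srebf2, which is set apart on these same values, also varied together within groups. The third replicate had the highest mean level over the 8 genes in each of the 4 groups, at log2 deviations from the group mean of 0.07 (unstimulated), 0.07 (1 h), 0.07 (6 h) and 0.08 (24 h). It was the highest of its group in all 4 groups for Hmgcs1, Fdft1, Sqle and Insig1, in 3 groups for Idi1, Lss and Cyp51, and in 1 group for Srebf2. The share of all genes with replicate 3 highest was not counted, so these counts do not show a trait particular to the members. At 24 h, replicate 3 was the highest for 8 of 8 genes and had the largest library total of the 12 (67096610 counts). In the unstimulated, 1 h and 6 h groups, replicate 3 had 59184574, 60966363 and 53218694 counts, which was the largest total of its group for the first pair and the smallest for 6 h. The part of total depth in these values was not tested.

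**Figure D3:**
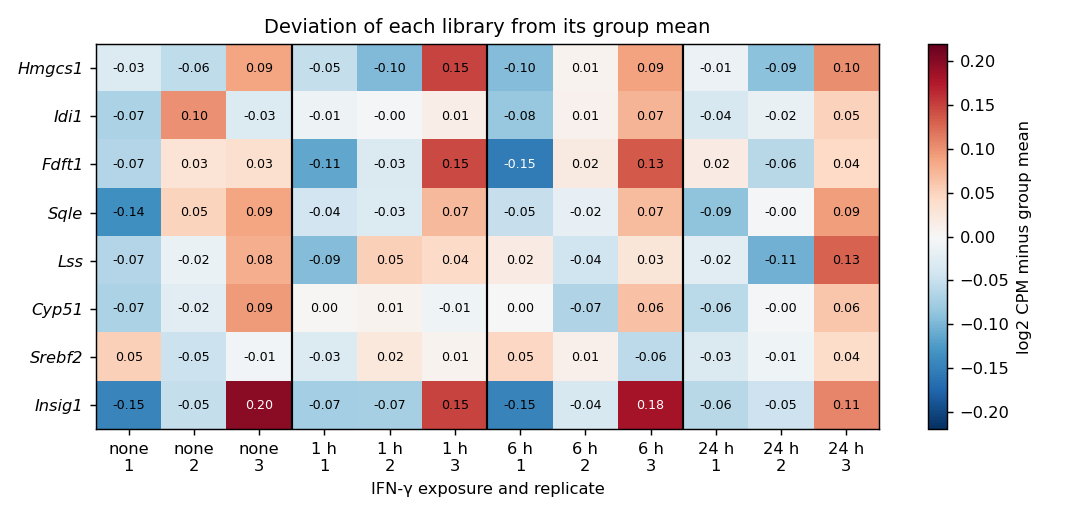
Deviation of each library from the mean of its group (log2 CPM, colour and printed value) for the 8 genes in rows and the 12 libraries in columns, by IFN-γ exposure and replicate. The third column of each group is mostly positive, up to 0.20 for Insig1 in unstimulated cells, and the row of Srebf2 stays between -0.06 and 0.05.

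As a description over libraries of shared groups, the correlation of within-group deviations over the 28 pairs of members had a median of 0.534 and ran from -0.566 to 0.878, while the median over all pairs of 8949 genes that averaged 5 CPM or more was 0.0023. Of all those pairs, 10% lay above the members' median. Among the 7 members other than Srebf2 every pair was positive, from 0.266 (Idi1 and Lss) to 0.878 (Hmgcs1 and Insig1). Srebf2 was negative with 6 of the 7, at -0.566 with Idi1, -0.382 with Fdft1, -0.309 with Insig1, -0.293 with Sqle, -0.149 with Cyp51 and -0.085 with Hmgcs1, and positive with Lss (0.243). Over the 12 libraries, with the 24 h difference included, the pairs ran from 0.473 to 0.949. The most like fellow member, by Pearson r over 12 libraries, was Insig1 for Hmgcs1 (0.95), Fdft1 (0.93) and Sqle (0.95), Cyp51 for Idi1 (0.92), Sqle for Lss (0.85) and Lss for Srebf2 (0.62).

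Among 8517 other genes, those most like the mean of the 8 members over the 12 libraries were ranked by Pearson r, and 6 of the 8 highest are given here. They were Rassf1, a Ras-association domain protein (0.98, and 0.93 over the 9 libraries without 24 h), Mxd1, a partner of Max that opposes Myc (0.96 and 0.78), Hbp1, an HMG-box transcriptional repressor (0.96 and 0.86), Bst2, the antiviral protein tetherin (0.96 and 0.71), Themis2, a B cell signalling adaptor (0.95 and 0.86), and Scd2, a stearoyl-CoA desaturase (0.95 and 0.66). The 12 libraries share their groups, so these values are descriptions. Irf1 ranked lower, with 0.91 over 12 libraries and 0.29 without 24 h.

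Other genes of synthesis from acetyl-CoA to cholesterol were mostly higher at 24 h too. Of 15 listed genes, 8 rose against unstimulated cells and 0 fell, beside 10.3% of all genes called higher and 8.35% called lower. A positive difference was seen in 15 of 15, beside 7062 of all 14299 genes, and the median log2 fold change was 0.25, beside -0.003 over all genes. Dhcr7, the enzyme of the last step to cholesterol, rose from 29.8 ± 2.28 to 39.1 ± 4.20 CPM (0.39 ± 0.08, edgeR adjusted p = 3.62e-04). Mvk, mevalonate kinase, rose from 9.65 ± 0.482 to 12.2 ± 1.08 CPM (0.33 ± 0.09, adjusted p = 0.00691). Mvd, mevalonate diphosphate decarboxylase, rose from 14.4 ± 0.748 to 18.1 ± 1.77 CPM (0.33 ± 0.08, adjusted p = 0.00502). These 3 enzymes, and Fdps, had 24 h libraries that lay above every unstimulated library, as did 17.2% of all genes. Fdps, farnesyl diphosphate synthase, went from 5.97 ± 0.702 to 7.50 ± 0.148 CPM (0.33 ± 0.11, edgeR adjusted p = 0.0361). Without 24 h replicate 3 the count fell from 8 to 5 and Mvk was lost (0.0653), and Fdps was lost without any of the 24 h replicates 1, 2 and 3 (0.0674, 0.0804 and 0.0916) or of unstimulated replicates 2 and 3 (0.0681 and 0.183). Against 6 h, 10 of the 15 were higher and 0 lower (8.92% of all genes higher), and against 1 h 11 and 0 (10.2% of all genes higher). After 1 h or 6 h alone 0 of 15 were called by edgeR, beside 0.42% and 1.59% of all genes called in either direction.

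**Figure D4:**
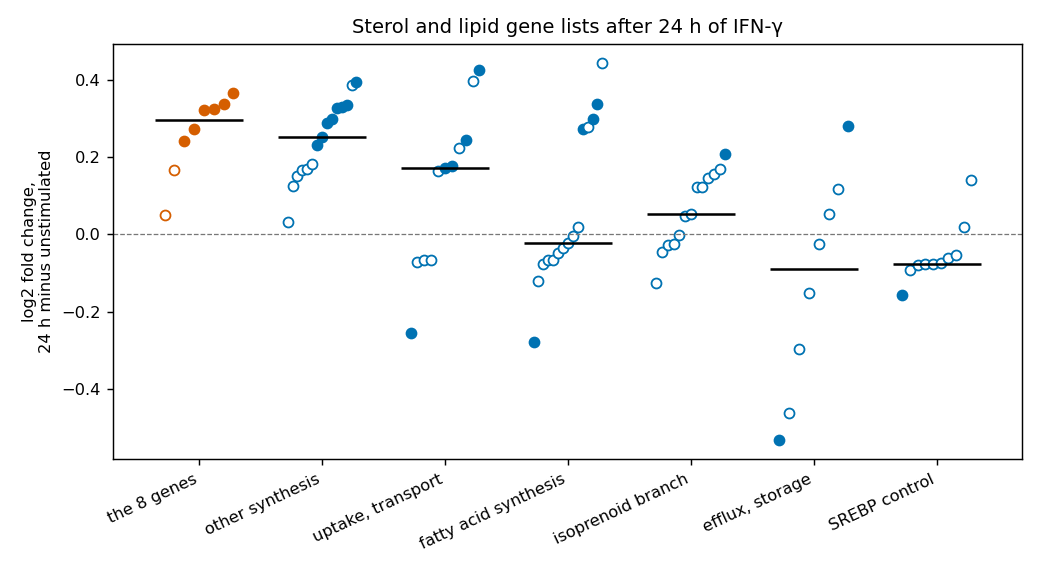
Log2 fold change at 24 h against unstimulated cells (y axis) of each tested gene in the 8-gene set and 6 other lists (x axis), with filled points for an adjusted p under 0.05 and a black line at each list's median. The medians are 0.30 for the 8 genes, 0.25 for other synthesis genes, 0.17 for uptake and transport genes and between -0.09 and 0.05 for the other 4 lists.

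Genes of cholesterol uptake and intracellular transport were mixed. Of 13 listed, 11 were tested, 4 rose and 1 fell at 24 h against unstimulated cells, beside 10.3% higher and 8.35% lower over all genes, with a median log2 fold change of 0.17. Mylip, the ubiquitin ligase that marks lipoprotein receptors for degradation, rose from 18.3 ± 1.46 to 24.7 ± 0.842 CPM (0.43 ± 0.07, edgeR adjusted p = 4.26e-05), so the largest called rise of this list was in a gene that opposes uptake. Scarb2, a lysosomal membrane protein, rose from 30.1 ± 0.728 to 35.6 ± 1.93 CPM (0.24 ± 0.07, adjusted p = 0.0113), and Stard4, a soluble sterol carrier, from 52.2 ± 2.48 to 59.0 ± 2.62 CPM (0.18 ± 0.05, adjusted p = 0.0202). Stard3, a late endosomal sterol transporter, fell from 15.0003 ± 0.773 to 12.6 ± 0.427 CPM (-0.26 ± 0.09, edgeR adjusted p = 0.0360). Without 24 h replicate 3 the count of rises fell to 2 (Scarb2 at 0.0607, Stard4 at 0.110), and Stard4 was also lost without unstimulated replicate 1 (0.112). Stard3 was lost without unstimulated replicates 1 and 3 (0.157 and 0.103), without 24 h replicates 1, 2 and 3 (0.135, 0.0612 and 0.0703) and with the GC trend removed (0.0640). Against 6 h, 5 of 11 were higher and 0 lower (3 without 6 h replicate 2, 1 without 24 h replicate 3), beside 8.92% of all genes higher, and against 1 h 6 were higher and 0 lower, beside 10.2% higher.

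A few genes of these lists did differ after the blocked exposures. Of the 11 uptake and transport genes tested, 1 was called lower after 1 h, and 1 higher and 1 lower after 6 h. Of 10 genes of SREBP control, 0 were called after 1 h and 1 was lower after 6 h. The other pathway lists had no call in these comparisons. Over all genes, 0.42% were called in either direction after 1 h and 1.59% after 6 h. Cd36, a scavenger receptor that takes up lipids, was at 43.4 CPM in unstimulated cells, 34.8 CPM after 1 h, 29.8 CPM after 6 h and 41.4 CPM after 24 h. It fell by 0.32 ± 0.06 on the log2 scale after 1 h (edgeR adjusted p = 0.0169) and by 0.54 ± 0.06 after 6 h (3.25e-06), and the 1 h call was lost without 1 h replicate 2 (0.0967), 1 h replicate 3 (0.0904) or unstimulated replicate 1 (0.125). After 24 h the log2 difference from unstimulated cells was -0.07 ± 0.06 and was not called (edgeR adjusted p = 0.508). Tmem97, a sterol-regulated membrane protein, fell from 71.8 to 59.8 CPM after 6 h (-0.26 ± 0.05, edgeR adjusted p = 0.00440; 0.0550 without unstimulated replicate 3). Mylip rose after 6 h to 22.1 CPM (0.27 ± 0.07, adjusted p = 0.0454), a call that was lost in 9 fits that omitted 1 library, with its largest adjusted p of 0.222 without unstimulated replicate 1, in the fit of the 6 libraries compared (0.131) and with limma-voom (0.0580).

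Regulators of SREBP processing had few calls at 24 h against unstimulated cells, with counts near the shares over all genes. Of 10 listed genes, including Scap, Insig2 and the proteases Mbtps1 and Mbtps2, 0 were called higher and 1 lower at 24 h against unstimulated cells, beside 10.3% and 8.35% of all genes, with a median log2 fold change of -0.08. Srebf1, which encodes the related factor SREBP1, fell from 50.7 ± 2.16 to 45.5 ± 2.14 CPM (-0.16 ± 0.06, edgeR adjusted p = 0.0474). The call was lost in 9 of 12 fits that omitted 1 library, up to 0.254 without unstimulated replicate 1, and with limma-voom (0.0512), the filter of at least 1 count in any library (0.0634), the fit of 6 libraries (0.0527) and the replicate block (0.0511). Scap was at 112.3 ± 3.52 and 106.5 ± 3.68 CPM (edgeR adjusted p = 0.270) and Insig2 at 10.7 ± 1.12 and 10.1 ± 0.529 CPM (adjusted p = 0.599).

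Lists on other fates of sterols had few calls, with shares near those over all genes (10.3% higher, 8.35% lower). Of 12 genes of cholesterol efflux, storage and liver X receptor signalling, 8 were tested, 1 rose and 1 fell at 24 h against unstimulated cells. Abca1, the exporter of cellular cholesterol, fell from 3.63 ± 0.526 to 2.501 ± 0.464 CPM (-0.53 ± 0.16, edgeR adjusted p = 0.0198), a call lost without 24 h replicate 2 (0.128), unstimulated replicate 2 (0.0949) or unstimulated replicate 3 (0.0662). Nr1h2, which encodes liver X receptor β, rose from 42.8 ± 1.21 to 52.0 ± 0.407 CPM (0.28 ± 0.05, adjusted p = 1.76e-04). In the isoprenoid branch 1 of 13 genes rose and 0 fell, a count no higher than the share over all genes. The 1 was Ggps1, geranylgeranyl diphosphate synthase, which went from 37.9 ± 2.12 to 43.8 ± 2.89 CPM (0.21 ± 0.06, edgeR adjusted p = 0.0174), lost without 24 h replicate 2 (0.127), unstimulated replicate 1 (0.0825) or unstimulated replicate 3 (0.0678). The isoprenoid count was 2 without 6 h replicate 3, 3 without 24 h replicate 3 and 2 with the GC trend removed.

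Of 17 fatty acid genes, 15 were tested, 3 rose and 1 fell at 24 h against unstimulated cells, beside 10.3% higher and 8.35% lower over all genes, with a median log2 fold change of -0.02. Scd2, the desaturase also named above, rose from 413.1 ± 19.3 to 521.6 ± 25.7 CPM (0.34 ± 0.05, edgeR adjusted p = 5.48e-06). Elovl5, a fatty acid elongase, rose from 68.7 ± 1.86 to 84.6 ± 0.672 CPM (0.30 ± 0.05, adjusted p = 1.20e-05). Fads1, the delta-5 desaturase, rose from 20.4 ± 1.16 to 24.6 ± 2.43 CPM (0.27 ± 0.08, adjusted p = 0.0129), a call lost without 24 h replicate 3 (0.120) or unstimulated replicate 2 (0.0551). Other desaturases and elongases of the list, Scd1, Fads2, Elovl1 and Elovl6, were not called, with log2 differences of -0.004, -0.07, -0.07 and -0.12. Gpam, which starts glycerolipid synthesis, fell from 153.5 ± 4.86 to 126.6 ± 5.39 CPM (-0.28 ± 0.05, edgeR adjusted p = 1.17e-04).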

How the data were processed

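Per the labels' protocols, polyA RNA was selected from 500 ng of total RNA, made into stranded libraries with 10 PCR cycles and sequenced as paired 125 bp reads. The authors deposited whole-number counts per gene for the 12 samples. The build mm10 and the tools Picard, featureCounts 1.4.3-p1 and STAR 2.5.2a are listed per the submitters' processing notes. Neither strand setting nor annotation is given in the sources used here. The table's header has doubled separators, so its 12 names were read in order. Between 69.9% and 73.9% of genes with low counts had an even count in a library, as arises when both mates are counted, so a count is less than 1 independent molecule.

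Of 53379 identifiers, 53274 had a symbol. The 14299 genes that passed filterByExpr were scaled with TMM factors, and the 4 groups were fitted together in edgeR 4.0.16 (R 4.3.3) with robust quasi-likelihood tests and 8 residual degrees of freedom. Genes with an adjusted p under 0.05 over all genes tested are called, and the procedure was tested on simulated data. The simulated libraries were independent and had the same spread for every gene, so they do not test replicate effects or the counting of both mates. Intervals are at 95%. Coordinates and exon lengths come from GENCODE M21 on GRCm38. Pairs of replicates differed by more than sampling noise (chi-square per degree of freedom 2.53 to 8.49 on halved counts), so none was counted as a repeat. The library totals limit the precision of low genes, and the common biological coefficient of variation was 0.0579.

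Members and lists were chosen with earlier results of these data known. Named genes are the 8 members, at most 4 called genes with the largest change from each of 6 pathway lists in a comparison, Irf1, and the 8 genes most like the members. Results of some genes that this rule or the marker lists take are not reported here. Scap, Insig2, the proteases and markers were named outside this rule, after their values were seen. Alternatives were DESeq2 1.42.0, limma-voom (limma 3.58.1), RLE size factors, 2 filters, a fit of the 6 libraries compared, a replicate block, halved counts, removal of trends on exon length or GC content, an adjusted p under 0.01 and each library left out. For the lists and their named genes these alternatives were chosen after seeing the data.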

Additional observations from a re-analysis of the deposited data

Results flagged for a closer look

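The difference from unstimulated cells was not the same at every exposure time, by a direct test between exposures (edgeR quasi-likelihood, adjusted p under 0.05). Between 24 h and 6 h, 8 of the 8 genes differed, each higher at 24 h, beside 8.92% of all genes called higher. The calls of Lss, Srebf2 and Insig1 were lost when single libraries were left out, with 5 of 8 without 24 h replicate 3 or 6 h replicate 2. Between 24 h and 1 h, 7 of the 8 differed, each higher at 24 h, with Srebf2 the exception (adjusted p = 0.103), beside 10.2% of all genes, and the count was 4 without 1 h replicate 1. The groups hold 3 libraries each, too few for a test of single libraries that stand apart.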

How the results depend on the processing

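The count of members called at 24 h against unstimulated cells was 6 and ranged from 4 to 7 when a library was left out. Against 6 h it was 8, ranged from 5 to 8, and was 5 at an adjusted p under 0.01. Against 1 h it was 7 and ranged from 4 to 8. It was 0 under every alternative run for 1 h or 6 h against unstimulated cells and for 6 h against 1 h. Hmgcs1, Idi1, Sqle and Cyp51 kept their call at 24 h in each fit that left out a library and in the other alternatives run at that threshold. No member changed sign in any comparison with 24 h. Replicate numbers do not pair the libraries by any label, and 8 of 18 same-numbered pairs correlated over 0.1 in their deviations, with 7 of 12 libraries closest to their own number. With the replicate block, 6, 7 and 7 members were called at 24 h against unstimulated cells, 6 h and 1 h, with Srebf2 lost against 6 h (adjusted p = 0.0539) and Insig1 at 5.44e-07 against unstimulated cells. Signs reversed in 43 fits of uncalled differences near 0, in 36 of them because a library was left out, and the smallest adjusted p among them was 0.745. Idi1 at 6 h against unstimulated cells was -0.000106 with the filter of at least 1 count in any library and -0.0472 with the GC trend removed, where Fdft1 was 0.00687 and Cyp51 -0.00630 at 1 h. Lss at 6 h against 1 h was 0.000607 with DESeq2, 0.000623 with RLE factors and 0.000547 in the fit of 6 libraries. The other reversals came from leaving out libraries, given as the lowest and highest log2 difference. For 1 h against unstimulated cells these ranges were -0.0309 to 0.0502 for Cyp51, -0.0869 to 0.0431 for Fdft1, -0.0621 to 0.0217 for Idi1, -0.151 to 0.0307 for Insig1 and -0.0492 to 0.0277 for Lss. For 6 h against unstimulated cells these ranges were -0.0122 to 0.0706 for Cyp51, -0.128 to 0.0193 for Fdft1, -0.00582 to 0.0904 for Hmgcs1, -0.0383 to 0.0528 for Idi1, -0.143 to 0.0613 for Insig1 and -0.0507 to 0.0204 for Lss. For 6 h against 1 h these ranges were -0.0149 to 0.0528 for Cyp51, -0.115 to 0.032 for Fdft1, -0.00935 to 0.0746 for Idi1, -0.0682 to 0.107 for Insig1, -0.0474 to 0.0238 for Lss, -0.0581 to 0.0149 for Sqle and -0.0400 to 0.00669 for Srebf2. The cause of these reversals was not tested. The 8 genes had at least 952 counts in every library, and the part of depth in their differences was not tested.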
